A study of Mus musculus with 12 samples.

Results

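Gene expression in the striatum was compared between mice that had received sodium butyrate together with repeated morphine and mice that had received saline. The comparison takes 9 of the 12 arrays of the series, namely the 3 butyrate-morphine arrays and the 6 saline arrays, chosen by their sample titles. Butyrate-morphine mice were given butyrate at 300 mg/kg and then morphine at 20 mg/kg in each of 6 induction trials held on alternate days, and morphine at 20 mg/kg as a challenge 7 days later. Saline mice were given vehicle in place of both drugs during induction. The remaining 3 arrays, called morphine here, came from mice that received vehicle and then morphine in induction and morphine at the challenge. All mice were 2-month-old Swiss-Albino males, and striatal RNA was taken 1 h after the challenge. The labels disagree on what the saline mice received at the challenge: the source names give saline, and the protocol text gives morphine at 20 mg/kg to every animal. A group given butyrate alone was not analysed here.

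Each Affymetrix Mouse Gene 1.0 ST array measured the pooled RNA of 4 animals, so a group of 3 arrays has 3 values per gene. Each deposited value is a difference from a baseline on the log2 scale, and saline arrays 1 and 2, 3 and 4, and 5 and 6 are mirror images of each other for every gene. The saline mean and median are therefore 0 for each gene, the saline range is symmetric, and the 6 saline arrays hold 3 independent values. Differences below are on this log2 scale, where 1 is a doubling, and errors are the SD over arrays unless stated. The number of arrays limits the precision, and levels cannot be compared between genes because each gene was centred. For the same reason the striatal label could not be checked against the level of its defining markers. The labels do not say whether a group's pools were drawn from different cohorts of mice. The p-values then reflect only how far these pools lie apart, which may be technical. In tissue pools, fewer cells of a type and less RNA per cell cannot be told apart.

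The striatum is the main input region of the basal ganglia, built mostly from inhibitory projection neurons that carry dopamine and opioid receptors. Histone deacetylases remove acetyl groups from histone tails, and butyrate inhibits several of them, so that acetylated, more accessible chromatin accumulates. Immediate early genes are switched on within minutes of neuronal activity, largely through the transcription factors CREB and SRF. Glucocorticoid-responsive genes are switched on by the stress hormone receptor, and clock genes form the feedback loop that keeps circadian time.

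Of 19935 genes tested with limma over all 12 arrays, 495 differed between butyrate-morphine and saline at an adjusted p under 0.05, which is 2.48% of the genes. Of these, 368 were higher (1.85%) and 127 lower (0.637%). Most differences were small: the median size among the called genes was 0.256 on the log2 scale, against 0.0488 over all genes. At least 2-fold rises numbered 7 and at least 2-fold falls 0, and changes of at least 1.5-fold numbered 29 up and 2 down. The 3 butyrate-morphine arrays lay outside the saline range for all but 2 of the called genes. Over all genes tested, 7.1% lay wholly above and 4.55% wholly below the saline arrays.

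With every saline mirror pair treated as a single value there remained 168 of the 495 genes, with 134 higher and 34 lower. The share of higher calls was 74.3%, but 63.1% (111 higher, 65 lower) among the probe sets whose stored value, judged by its rounding, was at least 8. The count was 213 without butyrate-morphine array 1, 233 without array 2, 270 without saline array 1 and 277 without saline array 4. It was 161, 191 and 204 with the mirror pairs 1 and 2, 3 and 4, and 5 and 6 left out in turn.

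The largest rises were in genes of quite different kinds. Ttr, which encodes transthyretin, the thyroid hormone carrier secreted by the choroid plexus, was at 3.63, 3.17 and 3.46 in the butyrate-morphine arrays and between -0.72 and 0.72 in saline. The saline pair 1 and 2 was spread more widely for Ttr than for any other of the 30 leading genes. The mean difference was 3.42 ± 0.23 (n = 3), or 10.7-fold, with a limma adjusted p of 3.62e-06. Kcnj13, an inwardly rectifying potassium channel gene, was at 2.36, 1.72 and 2.13 against saline values within 0.11 of 0. Lbp, whose product binds bacterial lipopolysaccharide, was at 1.18, 1.07 and 1.41 against saline within 0.15 of 0. Kcnj13 and Lbp each had an adjusted p of 3.62e-06.

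Among regulators of transcription and signalling, Zbtb16, a zinc finger repressor, was at 1.15, 1.34 and 1.04, against saline within 0.14 of 0 (2.26-fold, adjusted p = 3.62e-06). Sgk1, a kinase gene induced by serum and steroid hormones, was at 0.95, 1.18 and 1.01 with saline within 0.09 of 0 (2.07-fold, adjusted p = 1.36e-06). Adipor2, an adiponectin receptor gene, was the tightest of the leading rises at 0.80, 0.84 and 0.82 (0.82 ± 0.02, adjusted p = 6.71e-06). The 3 arrays of each of these genes lay above all saline arrays, as the rule for leading genes requires.

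Snord14e, a small nucleolar RNA gene, was at 0.93, 0.69 and 0.80 (adjusted p = 0.00412). Polr3e, an RNA polymerase III subunit, was at 0.73, 0.85 and 0.68 (adjusted p = 8.71e-06). Its value is the mean of 2 probe sets that disagree, 1 at 1.39 and the other at 0.12. The 15 leading rises all passed with mirror pairs counted once and in each fit that left out an array or a mirror pair. After quantile normalization 11 of them passed. The other 4 were Ttr, which dropped to 1.85 (adjusted p = 0.102), Nr4a1 (0.74, 0.219), Npas4 (0.61, 0.13) and Snord14e (0.55, 0.153).

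**Figure D1:**
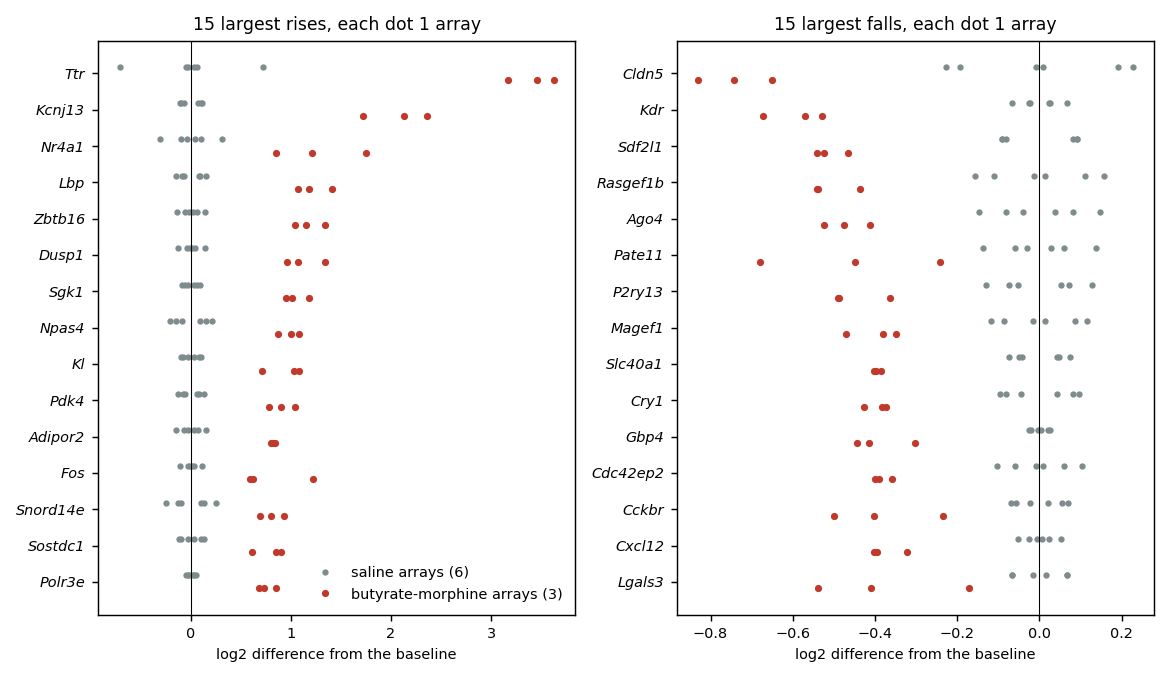
Log2 difference from the baseline (x axis) in each saline array (grey) and each butyrate-morphine array (red) for the 15 largest rises and the 15 largest falls among called genes whose groups do not overlap. Ttr reaches 3.63 while the falls end at -0.83 for Cldn5, and Fos, Nr4a1, Pate11 and Lgals3 show the widest spread between butyrate-morphine arrays relative to their difference.

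Glucocorticoid-responsive genes rose almost throughout. Among the 28 on the arrays there were 24 rises and 0 falls and the median was 0.419, where 1.85% of all genes rose and their median was 0.00629. The mean over the list was 0.426, 0.521 and 0.445 in the 3 butyrate-morphine arrays and within 0.00852 of 0 in saline, so the groups did not overlap. With mirror pairs counted once 16 rose, 15 rose without saline arrays 1 and 2 together, and 13 after quantile normalization. Probe sets with a stored value of at least 8 were left for 6 of the 28 genes, and 5 of these rose. In these arrays 13 of 15 choroid plexus markers also rose, with a mean of 0.904, 0.686 and 0.902 against saline within 0.0778 of 0, and their part in this result was not tested.

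The risers covered several functions. Pdk4, the kinase that shuts off pyruvate oxidation, was at 0.78, 1.04 and 0.90 against saline within 0.13 of 0 (adjusted p = 6.71e-06). Nfkbia, the inhibitor that holds NF-kappaB in the cytoplasm, was at 0.66, 0.78 and 0.76 against saline within 0.08 of 0 (adjusted p = 6.2e-06). Fkbp5, a co-chaperone that lowers the receptor's affinity for hormone, was at 0.62, 0.80 and 0.42, all above saline (0.61 ± 0.19, adjusted p = 0.000401). None of these overlapped saline.

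The steroid-induced leucine zipper gene Tsc22d3 rose by 0.58 ± 0.04, the receptor tyrosine kinase inhibitor Errfi1 by 0.56 ± 0.06 and the sulfotransferase Sult1a1 by 0.54 ± 0.04. The metallothioneins Mt2 and Mt1, which bind zinc and copper, rose by 0.39 ± 0.02 and 0.20 ± 0.02. Ddit4, an inhibitor of the growth kinase mTORC1, rose by 0.40 ± 0.15, and the transcription factors Klf15, Bcl6, Klf9 and Cebpd rose by 0.49, 0.47, 0.34 and 0.20. The 4 members that did not pass were Ehd3 (0.14), Lcn2 (0.10), Cebpb (0.02) and Angptl4 (0.02). Lcn2 had the widest spread of the list, with an SD of 0.25.

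The promoter of Sgk1 is shown because it holds an exact palindromic site for the glucocorticoid receptor, here AGAACA, then any 3 bases, then TGTTCT, searched on both strands. Promoters were 250 bases before to 50 after the annotated start, from RefSeq, build GRCm38.p6, which is the sequence of another mouse strain. The window below is chr10:21993689-21993727 on the plus strand, with the site in capitals.
Sgk1: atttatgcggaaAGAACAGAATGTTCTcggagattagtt
This arrangement was found in 3 of the 27025 genes of the table (0.0111%) and in 1 of the 22 risers of the list that have a promoter there. No match in the other windows says only that these letters are not in them.

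Immediate early genes rose in part. There were 11 rises (32.4%) and 0 falls among 34 genes, where 1.85% of all genes rose. The median was 0.156, against 0.00629 over all genes, and 10 of these calls held with mirror pairs counted once. After quantile normalization 6 rose. Of the 6 members with a stored value of at least 8, 1 rose. The mean over the list was 0.18, 0.253 and 0.407 in the butyrate-morphine arrays, against saline within 0.0759 of 0, so array 3 was highest and none overlapped saline. Dusp1 and Per1 are also on the glucocorticoid list. The choroid plexus means of the same arrays were 0.904, 0.686 and 0.902, and their part here was not tested either.

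The nuclear receptor Nr4a1 was at 0.85, 1.21 and 1.75, against saline within 0.31 of 0 (1.27 ± 0.45, 2.41-fold, adjusted p = 0.00228). Fos, the AP-1 subunit most used as an activity marker, was at 0.59, 0.62 and 1.22, against saline within 0.11 of 0 (0.81 ± 0.35, adjusted p = 0.00162). Arc, which shapes synaptic glutamate receptor number, was at 0.55, 0.62 and 1.02, against saline within 0.20 of 0 (0.73 ± 0.26, adjusted p = 0.00903). In all 3 genes array 3 was the highest and the groups did not overlap. Arc missed the threshold when saline arrays 3 and 4 were left out (adjusted p = 0.0528) and after quantile normalization (0.295).

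Npas4, a transcription factor that responds to calcium entry through synaptic activity, was at 0.87, 1.00 and 1.08 (0.98 ± 0.10, adjusted p = 1e-04). Dusp1, a phosphatase that turns off MAP kinases, was at 0.96, 1.06 and 1.34 (1.12 ± 0.19, adjusted p = 3.62e-06). Tiparp, an ADP-ribosyltransferase, was at 0.71, 0.68 and 0.82 (0.73 ± 0.07, adjusted p = 5.34e-05). These spread less between arrays than Fos and Nr4a1, and every array was above saline.

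Smaller rises were in Nr4a3 (0.56 ± 0.23), the kinase Sik1 (0.44 ± 0.12), the antiproliferative gene Btg2 (0.39 ± 0.23) and Fosb (0.39 ± 0.17). Btg2 had an adjusted p of 0.0445, and 0.129 with mirror pairs counted once. The zinc finger family Egr did not pass: Egr2 was at 0.31 ± 0.29, Egr4 at 0.15 ± 0.20, Egr1 at 0.13 ± 0.18 and Egr3 at -0.07 ± 0.09. Bdnf, the neurotrophin, was at -0.08 ± 0.09, the synaptic scaffold gene Homer1 at -0.16 ± 0.05 and Nr4a2 at -0.31 ± 0.17, and none of them passed. Jun (0.10) and Junb (0.22) did not pass, nor did Gadd45b at 0.22 ± 0.01 (adjusted p = 0.0606).

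Windows from the promoters of immediate early genes that rose are shown because most hold the core TGACG of the cAMP response element, the site of CREB and related factors. The full palindromic element is TGACGTCA, and each copy of it holds TGACG on both strands. Capitals mark the matches, with CGTCA where the match is on the opposite strand. The windows are, in this order, chr12:85473749-85473840 (plus strand), chr19:4990124-4990162 (minus), chr15:101266765-101266822 (plus), chr17:26508596-26508675 (minus), chr1:134079302-134079333 (minus), chr4:48045062-48045174 (plus), chr7:19310089-19310117 (minus) and chr11:69100008-69100036 (plus).
Fos: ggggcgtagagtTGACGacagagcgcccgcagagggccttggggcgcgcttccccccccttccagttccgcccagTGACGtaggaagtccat
Npas4: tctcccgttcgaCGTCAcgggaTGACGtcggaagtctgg
Nr4a1: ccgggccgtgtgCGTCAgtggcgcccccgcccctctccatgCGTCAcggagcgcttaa
Dusp1: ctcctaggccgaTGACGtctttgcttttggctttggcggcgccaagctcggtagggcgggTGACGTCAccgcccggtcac
Btg2: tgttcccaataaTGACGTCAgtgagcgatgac
Nr4a3: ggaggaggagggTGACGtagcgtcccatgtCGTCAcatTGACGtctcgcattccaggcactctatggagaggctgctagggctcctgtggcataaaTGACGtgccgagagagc
Fosb: tggagttgcgggTGACGcaagcgcggggg
Per1: gagctcagcggcTGACGtcggtttccctg
The core was in 8 of the 9 immediate early risers with a promoter in the table, all but Tiparp, and in 11 of the 17 members that were not called (64.7%). It was in 28.0% of the 15612 genes tested that have a promoter in the table, and in 23.0% of all 27025 genes of the table. In the whole comparison it was in 33.6% of the 295 risers that have one and in 33.7% of the 98 such fallers. The full element was in the promoters of 2 of the 9 risers (Dusp1 and Btg2), 2 of the 17 members not called (11.8%) and 2.72% of the 15612 genes tested. A match is a stretch of letters and not a measured binding site. The serum response motif known as the CArG box was in 0 of the 9 risers, 2 of the 17 members not called and 1.63% of the 15612. Promoters of Arc and Sik1 are not printed.

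Genes of the CREB pathway itself were mixed. Of 17 measured, 1 rose and 2 fell. Sik1, a kinase that restrains CREB coactivators, was at 0.37, 0.37 and 0.58 with saline within 0.06 of 0 (adjusted p = 0.000156). The family member Creb5 was at -0.23, -0.17 and -0.35, below all saline arrays (adjusted p = 0.00878), and Sik3 was at -0.18 ± 0.08 (adjusted p = 0.0427). Sik3 was lost with mirror pairs counted once (adjusted p = 0.154), without butyrate-morphine array 1 or 2 and without any single saline array (up to 0.196). Creb5 missed without saline arrays 1 and 2 together (0.0651). Creb1 was at 0.01 and the coactivators Crtc1 and Crtc2 at -0.01 and 0.11, and none passed.

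Clock genes moved in both directions. Of 18 measured, 4 rose and 2 fell, beside 1.85% and 0.637% of all genes, and the median was 0.162. After quantile normalization 0 rose and 1 fell, Cry1. Per1, a repressor of the clock loop, was at 0.58, 0.65 and 0.70 against saline within 0.15 of 0 (adjusted p = 8.67e-05). Nr1d1, the receptor that represses Arntl, was at 0.36, 0.44 and 0.42, with saline within 0.17 of 0 (adjusted p = 0.00761). Ciart, a further repressor of the loop, was at 0.68, 0.58 and 0.62, with saline spread to 0.42 (adjusted p = 0.0265). For these genes all butyrate-morphine arrays were above all saline arrays.

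On the other side, Cry1, the partner of the Per proteins, was at -0.38, -0.37 and -0.43, with saline within 0.10 of 0 (adjusted p = 0.000434). Arntl, the activator of the loop, was at -0.35, -0.33 and -0.38 with saline within 0.14 of 0 (adjusted p = 0.00724). The 3 arrays of each gene agreed closely and lay below saline. Per3 rose by 0.18 ± 0.01 (adjusted p = 0.0337). With mirror pairs counted once 2 rises (Per1 and Nr1d1) and 2 falls remained, and Ciart (0.0807) and Per3 (0.133) did not pass. After quantile normalization Per1 had an adjusted p of 0.06, Nr1d1 of 0.214 and Arntl of 0.111. Ciart and Per3 also missed the threshold without any 1 of the butyrate-morphine arrays or without saline array 1 or 5. Per3 was lost without saline array 2 or 4 as well (up to 0.121 for Per3 and 0.11 for Ciart). Dbp was at 0.31 ± 0.04 (adjusted p = 0.0549), while Clock (-0.02), Per2 (0.07) and Cry2 (0.08) were near 0.

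The promoters of Ciart and Cry1 are shown for the E-box CACGTG, the site of the activator pair CLOCK and ARNTL, which reads the same on both strands. The windows are chr3:95882255-95882356 and chr10:85185097-85185126, both on the minus strand.
Ciart: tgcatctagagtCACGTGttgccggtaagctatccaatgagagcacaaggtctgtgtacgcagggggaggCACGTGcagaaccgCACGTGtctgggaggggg
Cry1: ggtgccggtggtCACGTGgggtgcatgccg
Ciart, which rose, holds 3 copies, and Cry1, which fell, holds 1. Of the 16 clock genes with a promoter in the table, 5 hold an E-box (31.2%), against 9.5% of all genes tested that have one. The share was 24.0% of 25 glucocorticoid-responsive genes and 23.1% of 26 immediate early genes, so it was not high in clock genes alone. The motif was in 13.6% of the risers and 14.3% of the fallers of the whole comparison.

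**Figure D2:**
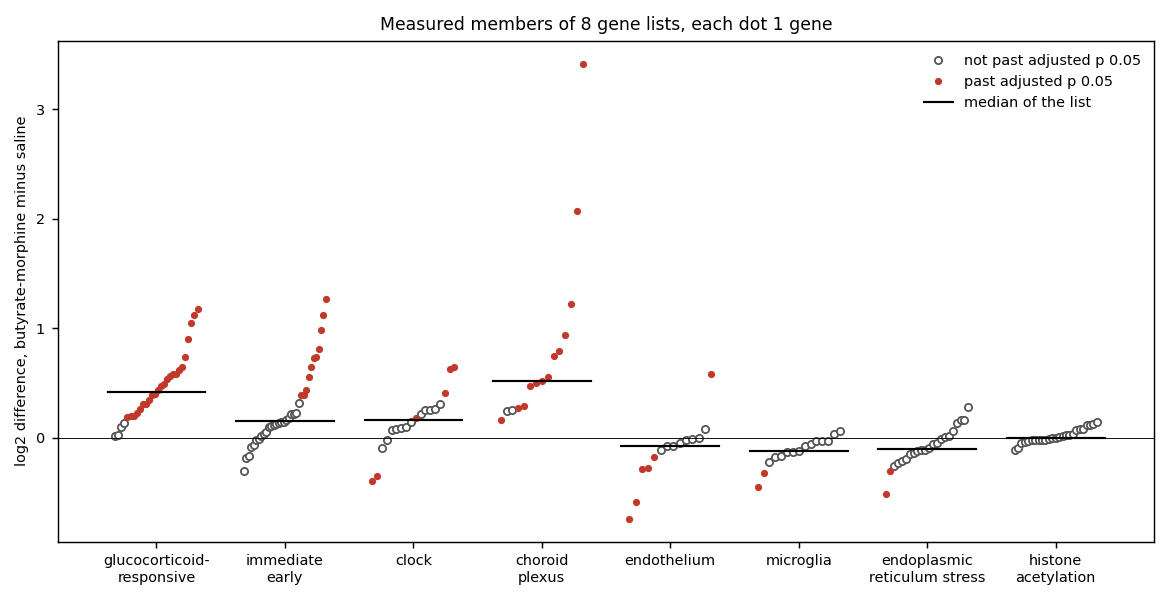
Mean log2 difference between butyrate-morphine and saline (y axis) for each measured gene of 8 lists, with genes past the adjusted threshold in red and the list median as a bar. The glucocorticoid-responsive and choroid plexus medians, 0.419 and 0.523, stand well above 0, while the histone acetylation list stays between -0.11 and 0.14 with no red point.

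Markers of the choroid plexus, the tissue in the ventricles that makes cerebrospinal fluid, rose in 13 of 15 measured genes. Over all genes 1.85% rose. The list median was 0.523, and 11 rose with mirror pairs counted once. After quantile normalization 10 rose, and none of the 15 was left among probe sets with a stored value of at least 8. Besides Ttr, Kcnj13 and Lbp, the anti-ageing co-receptor gene Kl was at 1.03, 0.71 and 1.08 (adjusted p = 5.05e-05). The chloride channel gene Clic6 was at 0.72, 0.73 and 0.79 (adjusted p = 3.62e-06), and the secreted BMP antagonist gene Sostdc1 was at 0.90, 0.61 and 0.85 (adjusted p = 0.000434). Except for Clic6, array 2 was the lowest of the 3 in these genes, and no array overlapped saline.

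Other risers were the folate receptor gene Folr1 (0.56 ± 0.16), the homeobox gene Otx2 (0.52 ± 0.28), the coagulation factor gene F5 (0.50 ± 0.02) and Tmem72 (0.47 ± 0.04). The tight junction gene Cldn2 rose by 0.27 ± 0.06, the channel subunit Kcne2 by 0.29 ± 0.17 and the metalloreductase Steap1 by 0.16. The bicarbonate transporter Slc4a5 (0.25, adjusted p = 0.0509) and the water channel Aqp1 (0.24, adjusted p = 0.13) were higher in the mean and did not pass. Some of these genes are also expressed outside the choroid plexus.

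Of 11 meningeal markers 1 rose (9.09%), where 1.85% of all genes rose. This was Igf2, a growth factor gene also made by the choroid plexus. It was at 0.66, 0.48 and 0.72 with saline within 0.09 of 0 (adjusted p = 0.000156). The collagens Col1a1, Col1a2 and Col3a1 were at -0.10, 0.01 and -0.06, and the proteoglycans Dcn and Lum at 0.26 and 0.15, and none passed.

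Of 14 genes of blood vessel endothelium, 1 rose and 5 fell, beside 1.85% and 0.637% of all genes, and the median was -0.0732. In 8 of the 14 the butyrate-morphine arrays overlapped saline, as they did in 17611 of all 19935 genes. After quantile normalization 1 rose and 1 fell, Slc2a1 and Kdr. Cldn5, the main tight junction protein of the blood-brain barrier, was at -0.65, -0.83 and -0.74, with saline within 0.23 of 0 (0.598 of the saline level, adjusted p = 0.000978). Kdr, the main receptor for vascular endothelial growth factor, was at -0.53, -0.57 and -0.67, with saline within 0.07 of 0 (0.664 of saline, adjusted p = 3.62e-06). Both were wholly below saline, and both held with mirror pairs counted once, but Cldn5 did not after quantile normalization (adjusted p = 0.113).

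Smaller falls were in Eng, a TGF-beta co-receptor (-0.28 ± 0.10), the angiopoietin receptor Tek (-0.28 ± 0.06) and Flt1, a second receptor for the same growth factor family (-0.18 ± 0.06). These 3 did not pass with mirror pairs counted once (adjusted p = 0.123, 0.0855 and 0.0807) or without butyrate-morphine array 3, which left 3 calls on the list. Leaving out saline arrays 1 and 2, or 3 and 4, also left 3. Eng and Tek were also lost without array 2, and Eng without saline array 2, 3, 4 or 6 (up to 0.172). The glucose transporter of the barrier, Slc2a1, rose instead, at 0.54, 0.66 and 0.54 with saline within 0.10 of 0 (adjusted p = 5.34e-05), and is on the glucocorticoid list too. Pecam1 (0.08), Cdh5 (-0.07) and Abcb1a (-0.02) did not pass. Of the 14 endothelial genes 2 were above 0, beside 10689 of 19935 over all genes. The list means were -0.0816, -0.124 and -0.169 in the butyrate-morphine arrays, against saline within 0.0556 of 0. Among 11 pericyte and smooth muscle markers 0 passed, with Pdgfrb lowest at -0.18 ± 0.08. The unadjusted limma p was under 0.05 for Pdgfrb and Rgs5 (0.00947 and 0.0266), beside 17% of all genes tested.

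Among 15 microglial markers 2 fell, and both are surface receptors that report on the state of neighbouring cells. P2ry13, an ADP receptor, was at -0.36, -0.49 and -0.49, with saline within 0.13 of 0 (adjusted p = 0.000624). Cx3cr1, the receptor for the neuronal chemokine fractalkine, was at -0.38, -0.32 and -0.26, with saline within 0.10 of 0 (adjusted p = 0.00485). All 6 values were below saline, and both genes passed with mirror pairs counted once and in every fit that left out an array, but Cx3cr1 did not after quantile normalization (adjusted p = 0.129). The other 13 markers did not pass, among them Csf1r at -0.03, Trem2 at -0.03 and C1qa at -0.22. Of the 15 markers 2 were above 0, beside 10689 of 19935 over all genes, and the list median was -0.117. The list means were -0.163, -0.123 and -0.0836 in the butyrate-morphine arrays, against saline within 0.0524 of 0. The 2 falls were 13.3% of the list, where 0.637% of all genes fell.

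Glial markers gave single calls, where 1.85% of all genes rose and 0.637% fell. The astrocyte connexin Gjb6, which is also on the glucocorticoid list, rose by 0.31 ± 0.05 among 12 markers (adjusted p = 0.0306), while Gfap was at 0.34 ± 0.09 (adjusted p = 0.0612) and Aqp4 at 0.18. Sox10, the transcription factor of the oligodendrocyte lineage, fell by 0.25 among 12 markers (adjusted p = 0.0245), while the myelin genes Mbp, Mog and Mag were at 0.04, 0.05 and 0.15. Gjb6 and Sox10 were lost with mirror pairs counted once (0.1 and 0.0929) and without any 1 of the butyrate-morphine arrays. Gjb6 was also lost without saline array 1, 2 or 6, and Sox10 without saline array 1 or 4 (adjusted p of up to 0.136 and 0.107).

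Further falls came from genes on no cell type list or alone on theirs. Rasgef1b, a Ras family exchange factor, was at -0.44, -0.54 and -0.54 with saline within 0.16 of 0 (adjusted p = 0.000822). Ago4, an argonaute of the small RNA pathway, was at -0.41, -0.52 and -0.47 with saline within 0.15 of 0 (adjusted p = 0.000822). Slc40a1, ferroportin, the only known cellular iron exporter, was at -0.40, -0.40 and -0.38 with saline within 0.07 of 0 (adjusted p = 8.67e-05). By the rule for leading genes none of these overlapped saline. Each passed with mirror pairs counted once, though Ago4 did not after quantile normalization (adjusted p = 0.0747).

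Magef1 was at -0.40 ± 0.06, the Cdc42 effector gene Cdc42ep2 at -0.38 ± 0.02, and the chemokine gene Cxcl12 at -0.37 ± 0.04, and all 3 passed in each fit that left out an array. Cckbr, a cholecystokinin receptor (-0.38 ± 0.13, adjusted p = 0.0337), Pate11 (-0.46 ± 0.22, 0.0277) and the galectin gene Lgals3 (-0.37 ± 0.19, 0.0144) did not pass with mirror pairs counted once (0.104, 0.0881 and 0.0554). All 3 were also lost without butyrate-morphine array 1 and without each mirror pair. Of single arrays, Pate11 and Lgals3 were lost without butyrate-morphine array 2, Cckbr without butyrate-morphine array 3 or saline array 1, 2, 4 or 5, and Pate11 without saline array 1, 4 or 5 (up to 0.156 for Cckbr).

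Genes of the endoplasmic reticulum stress response gave 0 rises and 2 falls among 22 measured, with a median of -0.103. The falls were 9.09% of the list, where 0.637% of all genes fell. Sdf2l1, an endoplasmic reticulum chaperone component, was at -0.54, -0.52 and -0.47 with saline within 0.09 of 0 (adjusted p = 0.0144). Ddit3, the stress-induced transcription factor CHOP, was at -0.22, -0.41 and -0.28 with saline within 0.09 of 0 (adjusted p = 0.00376). Both were below every saline array. Sdf2l1 missed without butyrate-morphine array 1 or 2 (0.072 and 0.0679), without each mirror pair and with mirror pairs counted once (0.051), where Ddit3 passed. The central chaperone Hspa5 (-0.26 ± 0.08) and Xbp1 (-0.23 ± 0.03) did not pass, and Dnajb9 was at 0.28 ± 0.09 (adjusted p = 0.15).

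Genes that define striatal projection neurons gave few calls. Of 16 dopamine signalling genes 0 passed, with Drd1 at -0.01 ± 0.11, Drd2 at -0.04 ± 0.07 and Ppp1r1b, the phosphatase regulator DARPP-32, at 0.08 ± 0.07. The cannabinoid receptor gene Cnr1 was the lowest, at -0.20, -0.18 and -0.26 with saline within 0.11 of 0 (adjusted p = 0.0925), and passed without morphine array 3. The unadjusted limma p was under 0.05 for 4 of the 16, Cnr1 (0.00438), Maob (0.0236), Ppp1r1b (0.0488) and Pde10a (0.0489). Over all 19935 genes tested it was under 0.05 for 3387 (17%).

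Of 9 direct-pathway markers 1 rose (11.1%), where 1.85% of all genes rose. This was Sfxn1, a mitochondrial serine transporter gene (0.28 ± 0.02, adjusted p = 0.0314). It was lost with mirror pairs counted once (0.106), without any 1 of the butyrate-morphine arrays and without saline array 1 or 6. The neuropeptide genes Tac1 and Pdyn were at 0.13 and 0.03. Of 6 indirect-pathway markers 0 passed: the receptor gene Gpr52 was at -0.26 ± 0.07 (adjusted p = 0.0548), and passed without saline array 1, and Penk was at -0.03. Array means of the direct-pathway list were 0.00313, 0.00547 and 0.0151, inside the saline range. Those of the indirect-pathway list were -0.119, -0.105 and -0.056 against saline within 0.0582 of 0, so 1 of the 3 lay in the saline range.

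Of 16 opioid system genes 1 fell (6.25%), where 0.637% of all genes fell. This was Rgs4, which speeds the shut-off of G proteins, by 0.21 (adjusted p = 0.0254). It was lost with mirror pairs counted once (0.105) and without any 1 of the butyrate-morphine arrays or saline array 2 or 4. The receptor genes Oprm1, Oprd1 and Oprk1 were at -0.05, -0.02 and 0.22, and none passed. Of 25 genes for histone acetylation enzymes and readers 0 passed. Hdac8 (0.14 ± 0.04, adjusted p = 0.06) and Hdac3 (0.12 ± 0.03, adjusted p = 0.133) had the lowest p-values, and 1 passed without morphine array 2. Hdac1 and Hdac2 were at 0.08 and 0.08, and the acetyltransferases Crebbp and Ep300 at -0.05 and -0.01. Of 31 glutamate and GABA receptor subunits 1 fell, the extrasynaptic GABA receptor subunit Gabrd, at -0.28 ± 0.08 with an adjusted p of 0.0494, a call that was lost with any saline or butyrate-morphine array left out.

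Markers of neighbouring tissue varied widely between the butyrate-morphine arrays. Thalamic and septal markers gave 0 calls of 12, and their mean was 0.375 in array 1, -0.106 in array 2 and 0.119 in array 3, against saline within 0.0365 of 0. The vesicular glutamate transporter Slc17a6 was at 0.83, -0.06 and 0.32, and Prkcd at 0.71, -0.45 and -0.52. Cortical excitatory markers gave 0 calls of 11 with array means of -0.0916, 0.0855 and 0.0165, and interneuron markers 0 of 13. The part of these array differences in the other results was not tested.

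**Figure D3:**
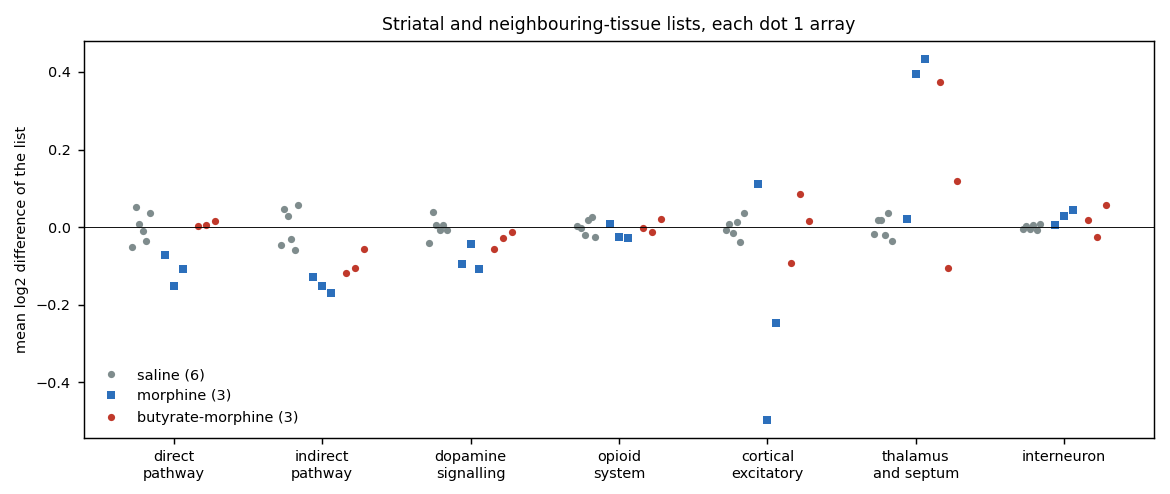
Mean log2 difference over each of 7 lists (x axis) in every saline array (grey), morphine array (blue) and butyrate-morphine array (red). The direct-pathway means of the butyrate-morphine arrays sit inside the saline range, while the thalamic and septal means run from -0.106 to 0.375.

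The remaining lists held few calls, where 1.85% of all genes rose and 0.637% fell. Heat shock genes gave 0 of 14, with the smallest unadjusted p at 0.0165 for Hspb1. Of 19 interferon-responsive genes Gbp4, a guanylate-binding GTPase, fell, at -0.44, -0.30 and -0.41 with saline within 0.03 of 0 (adjusted p = 5.34e-05), and Ifit1, Mx1 and Irf7 at -0.05, 0.01 and -0.20 did not pass. Gbp4 was below all saline arrays and passed in every fit that left out an array. Of 28 oxidative phosphorylation genes Sdhb fell by 0.23 and Ndufb9 by 0.15 (adjusted p = 0.0337 and 0.0484). Of 19 cholesterol synthesis genes Cyp51 rose by 0.24 (0.0377). Sdhb, Ndufb9 and Cyp51 were all lost with mirror pairs counted once. They were also lost without butyrate-morphine array 1 or 3 and without saline array 1, 3, 4 or 5, Sdhb and Ndufb9 without butyrate-morphine array 2, and Ndufb9 and Cyp51 without saline array 2 or 6. The 2 blood markers measured, Alas2 (0.18) and Slc4a1 (-0.06), did not pass.

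Values of the morphine group bear on what butyrate added, since both drug groups were set against the same saline arrays. Morphine against saline gave 531 called genes (2.66%), with 273 higher and 258 lower. In the direct contrast of butyrate-morphine with morphine, limma called 0 of 19935 genes, with the smallest adjusted p at 0.19, while 1719 genes (8.62%) had an unadjusted p under 0.05. Of those, 1268 were higher in butyrate-morphine. The count of 0 became 23 without morphine array 1, 11 without morphine array 3, 1 without morphine array 2 and 1 without butyrate-morphine array 1. A missed threshold with 3 arrays a group does not show that the groups were alike.

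Immediate early array means were 0.246, 0.0628 and 0.112 in morphine and 0.18, 0.253 and 0.407 in butyrate-morphine, so the drug groups overlapped. Of 34 genes, 31 had a higher mean in butyrate-morphine than in morphine, with a median difference of 0.106, beside 11344 of 19935 genes and a median of 0.0106 over all. Nr4a1 was at 1.26, 0.65 and 0.77 in the morphine arrays, and the difference from butyrate-morphine was 0.38 (95% interval -0.08 to 0.83). Fos was at 0.69, 0.51 and 0.51 in morphine, with a difference of 0.24 (-0.04 to 0.52). The values of both genes overlapped between the drug groups. Dusp1 was at 0.82, 0.66 and 0.80 in morphine, below all butyrate-morphine arrays, with a difference of 0.36 (0.17 to 0.55, unadjusted p = 0.00113, adjusted p = 0.266).

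The widest gap among clock genes was in Nr1d1, at 0.06, -0.16 and 0.06 in the morphine arrays, so that morphine overlapped saline and butyrate-morphine did not. The difference was 0.42 (0.24 to 0.59, unadjusted p = 0.000171, adjusted p = 0.224). Per1 was at 0.38, 0.19 and 0.39 in morphine, with a difference of 0.33 (0.17 to 0.48), and Cry1 at -0.13, -0.19 and -0.18, with a difference of -0.23 (-0.34 to -0.11). Their drug groups did not overlap, and both had an adjusted p of 0.261. The difference in Arntl was -0.11 (-0.26 to 0.04).

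On the glucocorticoid list the median difference between the drug groups was 0.0787, and 22 of 28 genes were higher in butyrate-morphine. The array means were 0.378, 0.402 and 0.357 in morphine, all below the butyrate-morphine means. An unadjusted p under 0.05 was seen for 7 of the 28, among them Dusp1 and Per1, given above, and Zbtb16 (0.25, unadjusted p = 0.0163, adjusted p = 0.462). Others lay closer: Sgk1 differed by -0.01 (-0.15 to 0.12), Nfkbia by 0.10 (-0.04 to 0.23) and Pdk4 by 0.11 (-0.06 to 0.27). Choroid plexus markers ran the other way: 1 of 15 was higher in butyrate-morphine, and the median difference was -0.207. Their array means were 1.09, 1.16 and 0.958 in morphine against 0.904, 0.686 and 0.902 in butyrate-morphine. Lbp differed by -0.45 (-0.65 to -0.26, unadjusted p = 0.000204, adjusted p = 0.224).

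Direct-pathway, indirect-pathway and dopamine signalling genes lay mostly lower in morphine than in butyrate-morphine, by small amounts. The 9 direct-pathway markers had a median of -0.182 in morphine and -0.00729 in butyrate-morphine, and 8 of the 9 were higher in butyrate-morphine. So were 6 of 6 indirect-pathway markers and 12 of 16 dopamine signalling genes, beside 11344 of 19935 genes over all. Opioid system genes (9 of 16) and interneuron markers (6 of 13) were not above that share. Ppp1r1b differed by 0.20 (unadjusted p = 0.000456), with values of -0.13, -0.11 and -0.11 in morphine against 0.02, 0.16 and 0.06. The groups did not overlap, but the adjusted p was 0.25. The muscarinic receptor gene Chrm4 differed by 0.28 and Oprk1 by 0.28 (unadjusted p = 0.00344 and 0.00221, adjusted p = 0.341 and 0.309). Cortical excitatory means of the morphine arrays were 0.111, -0.496 and -0.247 and thalamic and septal means 0.021, 0.396 and 0.434, so tissue markers also differed between the drug groups, and their part in these differences was not tested.

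The 10 genes with the lowest p for the contrast of the drug groups were led by Slc2a12, a glucose transporter gene, which lay nearer to saline with butyrate. It was at 0.54, 0.43 and 0.61 in butyrate-morphine and at 0.81, 0.87 and 0.93 in morphine (difference -0.34, -0.45 to -0.23, adjusted p = 0.19). Mrap2, an accessory protein of melanocortin receptors, was at 0.04, 0.06 and 0.14 against 0.39, 0.49 and 0.46 (difference -0.37, adjusted p = 0.19). Neither pair of groups overlapped, and in both genes the morphine arrays were the higher ones.

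Mpp7, a cell polarity scaffold gene, went the other way, at 0.88, 0.53 and 0.55 against 0.15, 0.17 and 0.18 (difference 0.48, 0.31 to 0.66, adjusted p = 0.19). The ceramidase gene Acer2 was at 0.42, 0.37 and 0.37 against 0.07, 0.22 and 0.04 (difference 0.28, adjusted p = 0.19), as the mean of 2 probe sets at 0.72 and 0.05 against saline that do not agree. Both genes rose against saline with butyrate (adjusted p = 0.000223 and 0.000107) and did not pass with morphine alone. The remaining genes of the 10 were Mfsd13a, Ppie, Smyd5, Efhd2, Acap3 and Psat1, with differences between -0.24 for Ppie and 0.28 for Efhd2.

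**Figure D4:**
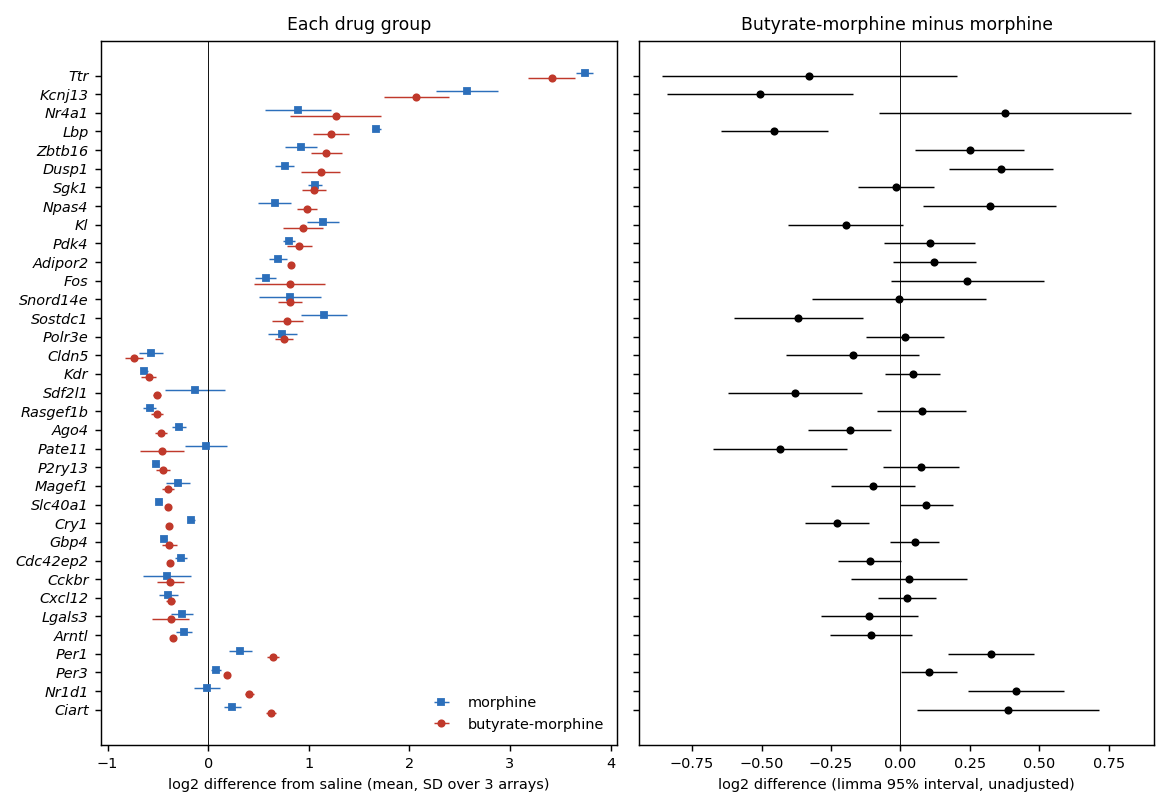
Left, mean log2 difference from saline with SD over 3 arrays in the morphine (blue) and butyrate-morphine (red) groups for the 30 leading genes, which include Cry1, and 5 further clock genes. Right, the difference between the drug groups with its unadjusted limma 95% interval, which spans 0 for Fos and Nr4a1 and lies above 0 for Nr1d1 (0.24 to 0.59) and below 0 for Lbp (-0.65 to -0.26), although no gene passed after adjustment.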

How the data were processed

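Per the labels and the values themselves, the authors deposited 1 log2 difference from a baseline for each probe set and array. The sources used here do not give how the authors normalized, background-corrected and centred them, and the log base was read from the rounding of the values. Of 28815 rows, 21780 had exactly 1 gene symbol, and averaging the probe sets of a gene gave 19935 genes, 998 of them from more than 1 probe set. The values were tested with limma 3.58.1 (lmFit and eBayes, R 4.3.3) over all 12 arrays with 3 group means, 9 residual degrees of freedom and Benjamini-Hochberg adjustment over all genes, threshold 0.05. Every adjusted p is from that fit unless another setting is named. Since the saline arrays are mirror pairs, a fit counting each pair once (7 residual degrees of freedom) stands beside the counts. The script was tested on simulated data.

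Named genes were the 15 largest rises and the 15 largest falls among called genes whose groups do not overlap, passing over predicted, clone-named and olfactory, vomeronasal and taste receptor genes. Up to 6 called members of each list, or else the 2 with the lowest p, and the 10 genes with the lowest p between the drug groups were added. Other members were named after their values were seen. The 26 gene lists hold 430 measured entries (416 genes). The comparison, lists and rules were chosen with earlier results of these data known. Promoter letters came from RefSeq (GRCm38.p6) and were searched with Python 3.11.15.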

Additional observations from a re-analysis of the deposited data

Results flagged for a closer look

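In 5 of the 10 genes with the lowest p between the drug groups, the 3 butyrate-morphine arrays all lay on one side of 0 and the 3 morphine arrays all on the other. Against saline, Psat1, an enzyme gene of serine synthesis, was at 0.19 with butyrate-morphine and -0.04 with morphine. Smyd5 was at 0.13 and -0.11, Mfsd13a at 0.10 and -0.18, and Acap3 at 0.10 and -0.16. The peptidyl-prolyl isomerase gene Ppie was at -0.16 and 0.08. These genes were picked for their difference between the groups, and the limma contrast left each with an adjusted p of 0.19 to 0.224.

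Rows of the table without exactly 1 gene symbol were outside the comparison. Of 7035 such rows, 63 passed an adjusted p of 0.05 against saline (0.896%), 45 of them higher and 18 lower. No symbol was listed for 48 of them and several for 15.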

How the results depend on the processing

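The count of 495 genes depended on the processing more than the direction of single genes did. It was 100 after quantile normalization, 176 for probe sets with a stored value of at least 8, 168 with mirror pairs counted once, 170 at an adjusted p under 0.01 and 236 with a fold of at least 1.2 required. It was 988 with only the 2 groups in the fit and 917 with array weights. Leaving out arrays or mirror pairs gave 161 to 728, with 161, 191 and 204 without each mirror pair, 213 without butyrate-morphine array 1, 233 without array 2, 270 without saline array 1 and 277 without saline array 4. The 71 list genes called became 34, 21, 46 and 46 under the first 3 of these settings and the stricter threshold, and 44 to 80 with arrays left out. Between the drug groups the count of 0 became 2 over every row of the table, and 0 to 23 with arrays left out. The cause of these shifts was not tested.

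Used as a replicate block, the replicate numbers left 51 genes (42 higher, 9 lower) and 25 list genes against saline. Same-numbered butyrate-morphine and saline arrays correlated at -0.0598, 0.0317 and -0.184 in their deviations from the group means. Same-numbered morphine and saline arrays correlated at -0.0141, -0.167 and 0.197, and the 2 drug groups at -0.122, -0.266 and -0.203. In the main fit the arrays were treated as sharing only a number, a choice that the correlations with saline cannot settle. In the block fit, saline arrays 4 to 6 had no drug array of the same number. The saline arrays of a mirror pair give opposite values. Butyrate-morphine array 1 was at -0.0598 with saline array 1 and at 0.0598 with saline array 2. The correlations with saline therefore cannot show whether arrays share a batch.

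Of the 62 named genes that were called, 40 passed in each of the 15 fits that left out arrays, and 0 changed direction in any of the settings run. Signal over background is not given in these values, so dim probe sets could be judged by the rounding of the stored values alone.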

Other observations

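Gene families gathered by their symbols after the data were seen gave further values for butyrate-morphine against saline. Of 317 zinc finger genes named Zfp, 9 rose (2.84%, where 1.85% of all genes rose) and 0 fell, while 0.637% of all genes fell. Zfp189, a transcription factor gene, rose by 0.60 ± 0.09 (limma adjusted p = 5.34e-05), Zfp954 by 0.42 and Zfp566 by 0.35. Of 364 solute carrier genes, 12 rose (3.3%) and 4 fell (1.1%). Besides Slc2a1 and Slc2a12, Slc25a13, a mitochondrial aspartate and glutamate carrier, rose by 0.50 and Slc41a1, a magnesium transporter, by 0.37 ± 0.13. Slc16a1, which carries lactate and also butyrate across membranes, fell by 0.24 ± 0.02 (adjusted p = 0.0284). With saline mirror pairs counted once, only Zfp189 and Zfp566 (0.0471) of the Zfp risers passed, and Zfp954 (0.114) did not. Of the solute carrier risers only Slc2a1, Slc2a12, Slc12a2, Slc25a13 and Slc41a1 passed. Slc40a1 was the only solute carrier faller to pass, and Slc16a1 (0.104) did not.

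Of 92 potassium channel genes named Kcn, 4 rose (4.35%) and 1 fell (1.09%), where 1.85% of all genes rose and 0.637% fell. Of the risers, Kcnj13 and Kcne2 are also on the choroid plexus list, where 13 of 15 rose. The rises were led after Kcnj13 by Kcna5 at 0.52 ± 0.10 (adjusted p = 0.00167). With mirror pairs counted once these 2 passed, and Kcne2 (0.111), Kcnb2 (0.166) and the faller Kcnh4 (0.119) did not. Of 61 cytosolic ribosomal protein genes, 0 rose and 3 fell (4.92%), Rpl13 by 0.28, Rpl41 by 0.28 and Rpsa by 0.20. Of 43 histone genes, 0 rose and 3 fell (6.98%), H4c4 by 0.36, H2aw by 0.28 and H2az2 by 0.25. With mirror pairs counted once, H4c4 alone of these 6 genes passed (adjusted p = 0.0169), and the others were at 0.0706 to 0.156. Members of these families share sequence, and whether their probe sets tell them apart was not tested. Of 302 microRNA genes, 3 rose (0.993%) and 1 fell (0.331%), both below the shares over all genes. The faller was the brain-enriched Mir219a-2, by 0.29, which passed with mirror pairs counted once (0.0297). The 3 risers did not (0.0703 to 0.136). The arrays read gene transcripts and not mature microRNAs.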
